A study of Homo sapiens with 4 samples.

Results

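Polycomb repressive complexes keep developmental genes silent through marks on histones. Polycomb repressive complex 2 (PRC2) methylates H3K27 through its catalytic subunit, EZH2 or EZH1, and needs SUZ12 and EED for this activity. Polycomb repressive complex 1 (PRC1) attaches ubiquitin to histone H2A through RING1 or RNF2, which pairs with a PCGF protein such as BMI1, and the canonical form of PRC1 carries a CBX protein that reads the H3K27 mark. In blood cells, BMI1 is known for sustaining the self-renewal of stem cells, and EZH2 is altered in several blood cancers.

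The expression of 10 Polycomb genes was examined, out of 25702 genes in the count tables. The 4 PRC2 genes were EZH1, EZH2, SUZ12 and EED, and the 6 PRC1 genes were BMI1, RING1, RNF2, CBX2, CBX7 and CBX8. They were picked by symbol through their NCBI gene numbers, with no measured value in the rule. K562, an established line from a human chronic myeloid leukemia, was nucleofected with LeGO-iG2 carrying RUNX1::ERG or with empty LeGO-iG2, a plasmid that also expresses green fluorescent protein in both groups. RUNX1::ERG is a fusion of 2 transcription factors that keeps the Runt DNA-binding domain of RUNX1 and the Ets domain of ERG. Each group had 2 biological replicates, and the labels list no further treatment for either. The expression is transient, and no source used here says that transfected cells were sorted before the poly(A)-enriched RNA was sequenced, so a level is an average over all cells of a culture, in which fewer expressing cells and less RNA per cell cannot be told apart.

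The counts per library ran from 59695387 to 82352144, and 3 counts, the limit that a count of 0 allows, correspond to 0.0364 to 0.0503 CPM, counts scaled to a common library size, covering counting error only. It would be higher if each fragment gave a pair of counts, to which the excess of even counts points. With the fusion, ERG reached 80443 and 27218 counts (replicates 1 and 2) against 4 in either control, so the libraries carried the labelled construct. The RUNX1 level rose from a mean of 63.8 to 593 normalized CPM (log2 fold change 3.22, adjusted p = 0.000365 by edgeR's quasi-likelihood test). Counts of RUNX1 can include reads from the RUNX1 part of the construct, so the cells' own RUNX1 cannot be told apart from it. MYC, which encodes a growth-promoting transcription factor, fell by 1.11 on the log2 scale (adjusted p = 0.00201 by edgeR). All 10 erythroid markers of K562 passed the filter on low counts. TAL1 and EPOR passed the test on the higher side, which is 20% against 3.64% of all genes, and the other 8 did not pass. This count of 2 was 6 with the replicate block and 4 without a filter. It fell to 0 when RUNX1::ERG replicate 1 was left out and to 1 when replicate 2 of that group was left out, and was 4 in the absence of control replicate 1. Their summed level was 12120 to 12750 normalized CPM in the empty vector libraries and 13320 to 14440 in the RUNX1::ERG libraries. The largest part of this sum was HBE1, at 6394 to 8412 over the 4 libraries. Of the 10 markers 7 were fitted higher and 3 lower. Those lower were HBZ (log2 fold change -0.59, adjusted p = 0.05003 by edgeR), TFRC (-0.57) and KLF1 (-0.12). Of 10 markers of other cell types 7 were tested and 3 rose (CD14, COL1A1 and PECAM1), which is 42.9% of those tested against 3.64% of all genes, the summed level went from 11.2 to 12.0 up to 50.3 to 54.1 normalized CPM, and the B cell marker MS4A1 was at 0 in every library. Whether these markers have any part in the Polycomb values was not tested.

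The promoters of the members were read because the fusion carries the Runt and Ets domains. RefSeq promoter sequences (build GRCh38.p14) were found for 8 of the 10 members, and CBX2 and CBX8 had no entry. In each window of 250 bases before a transcription start, the Runt letters TGTGGT or TGCGGT and the ETS letters CGGAAG or AGGAAG were searched on both strands. No window of a member held both kinds of letters, so no matches of the 2 kinds overlapped. The 8 genes had 10 windows, since EZH2 and BMI1 have 2 starts each. None of the 10 windows held the Runt letters, which were present in 16.3% of 35116 promoter windows of the same length. The ETS letters were present in 5 of the 10 windows, those of EZH1, SUZ12, EED, RING1 and RNF2, against 40.8% of all windows. Printed below are EZH1 and CBX7, the members with the lowest and the highest fitted differences, EED, which holds 2 matches, RNF2, whose match lies 18 bases before the start, and PHC1 at its second start, the Polycomb gene outside the 10 that passed the test, whose first start has neither kind of letters in its window. Capitals mark the ETS letters on either strand, the last base is next to the start, and no capitals means that neither kind of letters is in the window.
EZH1, chr17:42745041-42745290, minus strand: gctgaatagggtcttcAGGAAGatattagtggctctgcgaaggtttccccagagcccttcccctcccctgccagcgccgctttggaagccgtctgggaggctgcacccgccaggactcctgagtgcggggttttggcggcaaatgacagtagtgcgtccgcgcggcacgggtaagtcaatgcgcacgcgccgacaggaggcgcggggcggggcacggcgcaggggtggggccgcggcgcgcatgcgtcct
EED, chr11:86244503-86244752, plus strand: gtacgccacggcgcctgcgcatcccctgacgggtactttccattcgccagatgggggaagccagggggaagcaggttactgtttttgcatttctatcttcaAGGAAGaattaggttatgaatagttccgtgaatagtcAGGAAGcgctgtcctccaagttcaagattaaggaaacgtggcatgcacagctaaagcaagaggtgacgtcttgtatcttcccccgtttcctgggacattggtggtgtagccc
RNF2, chr1:185045308-185045557, plus strand: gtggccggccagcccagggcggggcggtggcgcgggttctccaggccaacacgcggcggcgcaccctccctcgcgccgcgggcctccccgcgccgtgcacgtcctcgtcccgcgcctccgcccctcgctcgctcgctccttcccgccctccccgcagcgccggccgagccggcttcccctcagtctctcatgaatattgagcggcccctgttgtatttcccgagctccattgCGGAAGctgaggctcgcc
CBX7, chr22:39152681-39152930, minus strand: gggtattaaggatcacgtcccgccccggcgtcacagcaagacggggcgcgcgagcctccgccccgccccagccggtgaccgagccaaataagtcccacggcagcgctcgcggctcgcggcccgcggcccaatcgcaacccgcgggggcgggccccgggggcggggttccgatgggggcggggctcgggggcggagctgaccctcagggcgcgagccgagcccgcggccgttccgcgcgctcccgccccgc
PHC1, chr12:8914259-8914508, plus strand: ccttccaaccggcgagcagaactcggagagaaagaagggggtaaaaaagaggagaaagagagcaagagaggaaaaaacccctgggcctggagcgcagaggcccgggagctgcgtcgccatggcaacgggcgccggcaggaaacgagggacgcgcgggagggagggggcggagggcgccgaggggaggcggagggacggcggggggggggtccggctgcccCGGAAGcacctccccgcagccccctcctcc
A match is a description of letters and does not show that the fusion binds there.

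None of the 10 Polycomb genes passed the test between RUNX1::ERG and empty vector. RING1 was too low to be tested. Of the 9 tested, 0 passed an adjusted p of 0.05 in edgeR's quasi-likelihood test, where 4.79% of all 15394 genes tested did (3.64% higher and 1.15% lower), and 0 passed in DESeq2 or limma voom. CBX7 alone had an unadjusted p under 0.05, a level that 18% of all genes tested reached. Fitted differences were above 0 in 5 members and below 0 in 4, with a median log2 fold change of 0.03 against -0.00 over all genes tested. The lowest lower bound of the 9 intervals was a fold of 0.552 (EZH1), and the highest upper bound was 2.22 (CBX7), so the 95% intervals of the other 7 lay between 0.625 and 1.53. In 3 members the groups did not overlap, EZH1 and EZH2 on the lower side and CBX7 on the higher side. Among all genes tested 47.2% did not overlap, 22.1% on the lower and 25.1% on the higher side.

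**Figure D1:**
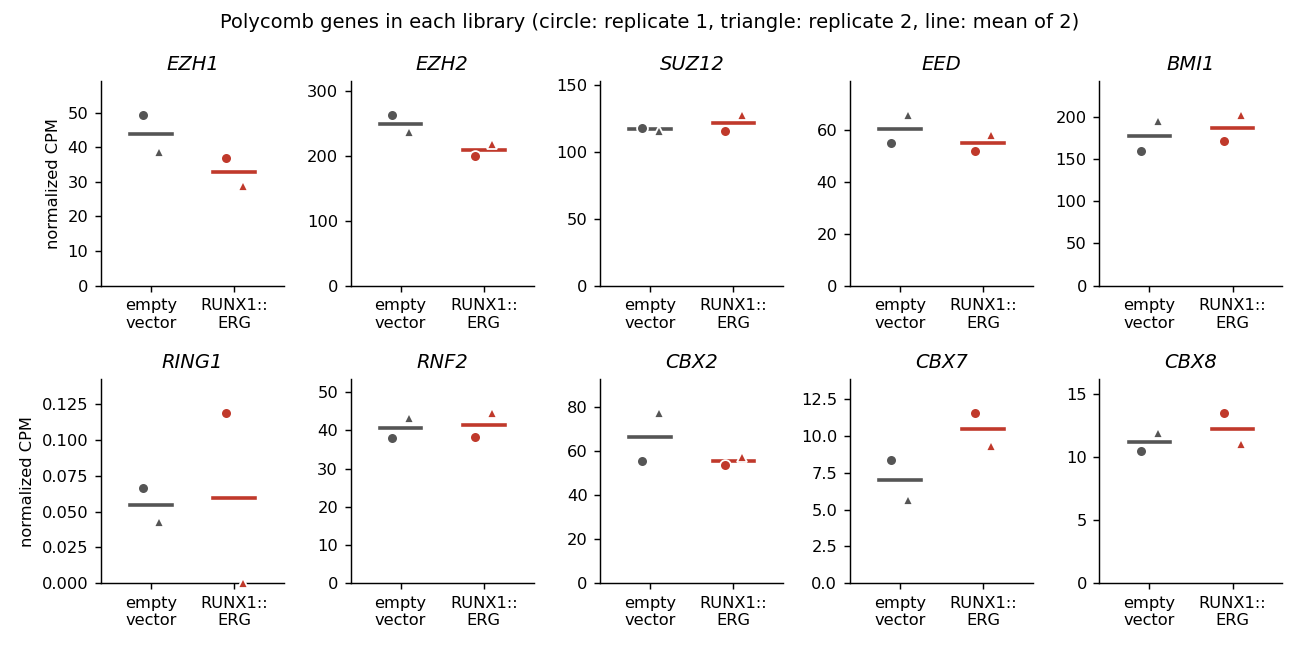
Normalized CPM of the 10 Polycomb genes in each library, on linear axes that start at 0. Grey symbols are empty vector and red symbols RUNX1::ERG, circles are replicate 1, triangles are replicate 2 and lines are the mean of the 2 replicates. EZH1 and EZH2 lie lower and CBX7 higher in both RUNX1::ERG libraries, while the RING1 axis ends below 0.2 CPM.

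The catalytic subunits of PRC2 were both fitted lower with RUNX1::ERG, neither passed the test, and both 95% intervals included no change. Their groups did not overlap, as was so on the lower side for 22.1% of all genes tested. EZH2 (chromosome 7 of GRCh37, 148504349 to 148581413, minus strand), the main H3K27 methyltransferase of dividing cells, was at 263 and 237 normalized CPM in empty vector replicates 1 and 2, and at 199.7 and 219 in RUNX1::ERG replicates 1 and 2. Both fusion libraries were below both controls, and the gap between the nearest libraries of the groups was smaller than the gap between the 2 controls. The means were 249.8 ± 18.5 and 209 ± 13.7 (SD, n = 2 each), and the fitted log2 difference was -0.25 with a standard error of 0.15 (adjusted p = 0.433 by edgeR). The 95% interval of the fold was 0.665 to 1.06. EZH1 (chromosome 17, 40852293 to 40897067, minus strand), the paralog with weaker catalytic activity that predominates in resting cells, was at 49.3 and 38.5 normalized CPM with empty vector and at 36.8 and 28.9 with RUNX1::ERG. Here the higher fusion library lay just under the lower control, and replicate 1 exceeded replicate 2 in both groups. The fitted log2 difference was -0.42 with a standard error of 0.20 (adjusted p = 0.308 by edgeR), with a fold of 0.749 and a 95% interval of 0.552 to 1.02.

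The structural subunits of PRC2 showed smaller differences, and their groups overlapped. SUZ12 (chromosome 17, 30264026 to 30328057, plus strand), which holds the complex together, was at 118.4 and 116.2 normalized CPM with empty vector and at 115.5 and 127.7 with RUNX1::ERG. The lowest and the highest library were both RUNX1::ERG libraries. Its log2 fold change was 0.05 with a 95% interval of -0.29 to 0.39 (adjusted p = 0.914 by edgeR). EED (chromosome 11, 85912254 to 85989855, plus strand), the subunit that binds methylated H3K27, was at 54.8 and 65.7 normalized CPM with empty vector and at 51.9 and 58.1 with RUNX1::ERG. Replicate 2 was above replicate 1 in both groups, and the groups overlapped. The log2 fold change of EED was -0.13 with a 95% interval of -0.51 to 0.24 (adjusted p = 0.765 by edgeR). SUZ12 has a pseudogene copy on the same chromosome, SUZ12P1, at 4.84 to 9.78 normalized CPM over the 4 libraries, and how reads shared by the copies were counted is not given in the sources used here.

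Within PRC1, the core genes BMI1 and RNF2 had similar values in both groups. BMI1 (chromosome 10, 22610028 to 22620413, plus strand) was at 159.7 and 194.5 normalized CPM with empty vector and at 171.5 and 201.7 with RUNX1::ERG, so the spread between replicates exceeded the difference between groups. Its log2 fold change was 0.07 with a 95% interval of -0.29 to 0.44 (adjusted p = 0.881 by edgeR). RNF2 (chromosome 1, 185014658 to 185071735, plus strand), the ubiquitin ligase subunit also called RING1B, was at 37.9 and 43.2 normalized CPM with empty vector and at 38.4 and 44.6 with RUNX1::ERG. The 2 replicates of RNF2 differed by more than the groups did. Its log2 fold change was 0.03 with a 95% interval of -0.36 to 0.42 (adjusted p = 0.958 by edgeR).

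Of the 3 CBX members, CBX7 was highest relative to empty vector. CBX7 (chromosome 22, 39516172 to 39548685, minus strand), a reader of methylated H3K27 that is prominent in stem cells, had 501 and 400 counts with empty vector and 973 and 669 with RUNX1::ERG. These correspond to 8.32 and 5.67 against 11.5 and 9.31 normalized CPM, so both fusion libraries were above both controls. Means of 7.00 ± 1.87 and 10.4 ± 1.58 (SD, n = 2 each) gave a log2 fold change of 0.58 with a standard error of 0.26, an unadjusted p of 0.04997 and an adjusted p of 0.278 by edgeR. The 95% interval of the fold ran from 1.00 to 2.22. CBX2 and CBX8 lie next to each other on chromosome 17, at 77751947 to 77761782 on the plus strand and at 77765931 to 77775482 on the minus strand. CBX2 was at 55.8 and 77.5 normalized CPM with empty vector and at 53.7 and 57.3 with RUNX1::ERG, and control replicate 2 stood above the other 3 libraries. Its log2 fold change was -0.26 with a 95% interval of -0.68 to 0.15 (adjusted p = 0.528 by edgeR), and without that library it was -0.01. CBX8 was at 10.5 and 11.9 normalized CPM with empty vector and at 13.5 and 11.0 with RUNX1::ERG. Its groups overlapped, and its log2 fold change was 0.13 with a 95% interval of -0.35 to 0.62 (adjusted p = 0.831 by edgeR).

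RING1 was the exception in level. RING1 (chromosome 6, 33176277 to 33180499, plus strand), the paralog of RNF2, had 4 and 3 counts with empty vector and 10 and 0 with RUNX1::ERG, which is at most 0.119 normalized CPM. Low counts were not limited to this gene. RING1 lies in an interval of chromosome 6 (28870779 to 33425321, from TRIM27 to ZBTB9, which holds the major histocompatibility complex) with 161 protein-coding genes in the count tables. In none of them did the mean over the 4 libraries reach 10 normalized CPM, and the highest mean was 6.04. The ends of the interval were drawn around this low stretch after the values were seen, so the observation is its length and not the absence of higher genes inside it. Of the same number of genes just before the interval 41.6% reached 10, just after it 54.0%, and among all 18933 protein-coding genes 46.7%. Even RPS18, a ribosomal protein gene inside the interval, was at 0.51 to 0.667 normalized CPM, whereas RPS10, a ribosomal protein gene outside it on the same chromosome, was at 727 to 1204. Whether the low RING1 values come from the cells or from how reads of this interval were aligned and counted was not tested, so the level of RING1 and its ratio to RNF2 cannot be read from these counts. PHF1, a PRC2 accessory gene, lies in the same interval.

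**Figure D2:**
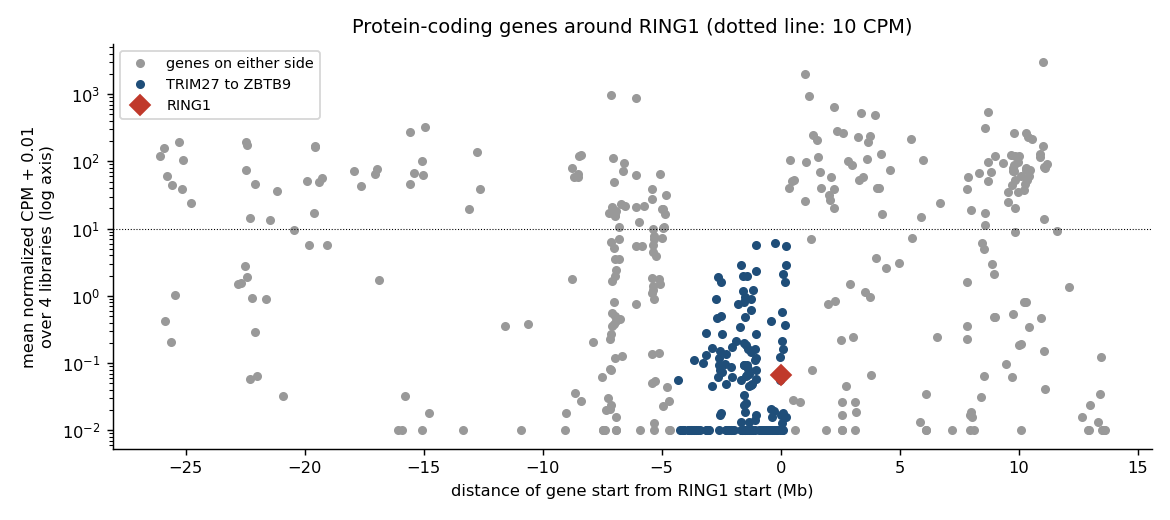
Mean normalized CPM plus 0.01 over the 4 libraries (log axis) of protein-coding genes around RING1, by the distance of their starts from that of RING1 in Mb. Each point is a gene, blue points are the 161 genes from TRIM27 to ZBTB9, the red diamond is RING1, and all blue points lie under the dotted line at 10 CPM.

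Levels of different members were compared per kilobase of the canonical transcript. In the empty vector libraries EZH2 was highest at 94.1 ± 6.96 CPM per kb (SD, n = 2), followed by BMI1 at 50.0 ± 6.95. Next came EED at 28.9 and SUZ12 at 26.1, whose order differed between libraries, then CBX2 at 14.4 and RNF2 at 11.9, which also changed places. EZH1 followed at 9.47 CPM per kb, then CBX8 at 2.99 and CBX7 at 1.70. CBX8 exceeded CBX7 within every library, although their ranges over the 4 libraries overlapped. With RUNX1::ERG the order was the same outside those exchanging pairs, with EZH2 at 78.9 and BMI1 at 52.7 CPM per kb. The choice of length decides part of this order. With the union of all annotated exons as length, a choice made after the data were seen, BMI1 was first in empty vector libraries at 40.3 CPM per kb and EZH2 second at 23.2, and EED was sixth.

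Several members are alternatives for the same position in a complex, so their shares within a library were compared (per kb of canonical transcript). EZH2 made up 90.3% to 93.0% of the summed level of EZH2 and EZH1 over the 4 libraries, and with the union of exons as length its mean share was 78.8% with empty vector and 80.5% with RUNX1::ERG. BMI1 made up 42.3% to 51.2% of the 6 PCGF genes, and PCGF2, its closest paralog, 4.95% to 7.07%. A ratio of counts within a library needs no scaling between libraries, and 3 such ratios were tested. The ratio of EZH2 to EZH1 was 5.34 and 6.15 with empty vector and 5.43 and 7.58 with RUNX1::ERG, an overlap (exact two-sided permutation p = 0.667). BMI1 to PCGF2 overlapped as well, with 9.03 and 12.3 against 8.65 and 13.9 (exact permutation p = 1). CBX8 to CBX2 was 0.188 and 0.154 against 0.252 and 0.193, higher in both fusion libraries (exact permutation p = 0.333, the smallest that 2 libraries against 2 allow). Adjusted over the 3 ratios, every p was 1.

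**Figure D3:**
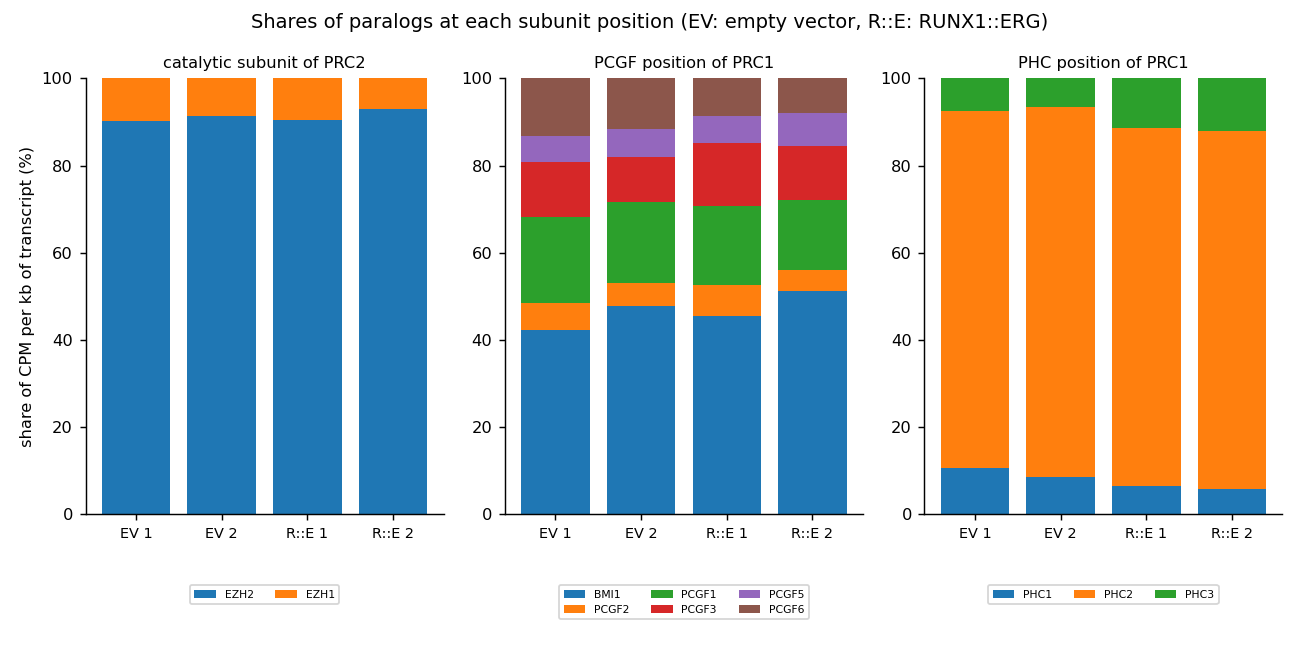
Shares, in percent of the summed CPM per kb of canonical transcript, of the paralogs at each subunit position in the 2 empty vector (EV) and 2 RUNX1::ERG (R::E) libraries. EZH2, BMI1 and PHC2 take the largest shares in every library, and the PHC1 share is smaller and the PHC3 share larger in both RUNX1::ERG libraries.

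Of another 39 genes of the Polycomb system, 1 of 36 tested passed, which is 2.78% against 4.79% of all genes tested, and their median log2 fold change was 0.00. Of 9 other PRC2 genes tested 0 passed in edgeR, with a median of 0.11. At an unadjusted p under 0.05 by edgeR there were 0, against 18% of all genes tested. PHF19, which directs PRC2 to chromatin, was the highest expressed of them at 358 and 399 normalized CPM with empty vector and 434 in each RUNX1::ERG library (log2 fold change 0.20, adjusted p = 0.537 by edgeR). The groups of PHF19 did not overlap, and the control replicates were farther apart than the nearest libraries of the groups. PHF1 had the largest fitted difference (1.18, adjusted p = 0.372 by edgeR), on 1.06 and 0.922 against 3.78 and 0.682 normalized CPM. Replicate 1 of RUNX1::ERG alone set its direction, which became -0.54 without that library. PHF1 lies in the low interval around RING1, so its level cannot be read from these counts either.

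Among 18 other PRC1 genes tested, PHC1 passed, on the lower side, where 1.15% of all genes tested were called lower. PHC1, a subunit through which PRC1 complexes join into larger assemblies, was at 14.4 and 11.0 normalized CPM with empty vector and at 6.45 and 5.54 with RUNX1::ERG. Both fusion libraries were far below both controls. The fitted log2 difference was -1.08 with a standard error of 0.24 (adjusted p = 0.0304 by edgeR, 0.000469 to 0.107 over the alternatives), and the call was lost without RUNX1::ERG replicate 1 (adjusted p = 0.0773) or replicate 2 (0.107), each of which leaves that group with 1 library, and with library totals alone (0.0533). Its paralog PHC2, chosen after values were seen, was at 81.8 and 81.5 against 59.1 and 58.4 normalized CPM (-0.47, adjusted p = 0.118 by edgeR), and PHC3 had a fitted difference of 0.30 (adjusted p = 0.466 by edgeR). The share of PHC1 in the 3 PHC genes was 10.7% and 8.51% with empty vector and 6.63% and 5.77% with RUNX1::ERG, and that of PHC3 7.40% and 6.56% against 11.3% and 12.1%. PHC2 held 82.0% to 84.9% in all 4 libraries. PCGF6, which defines a variant PRC1 and was also chosen after values were seen, was at 31.7 and 29.8 against 20.4 and 20.0 normalized CPM (-0.61, adjusted p = 0.0868 by edgeR). With the replicate block, PHC1, PHC2 and PCGF6 all passed on the lower side (adjusted p = 0.0373 for PHC2 and 0.0310 for PCGF6 by edgeR). That fit called 1733 genes, 651 of them lower, against 737 and 177 in the main fit. USP7, a deubiquitinase found with PRC1 and the highest expressed gene of the list with empty vector (BCOR was higher with RUNX1::ERG), had a log2 fold change of -0.09, and PCGF2 had 0.04.

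**Figure D4:**
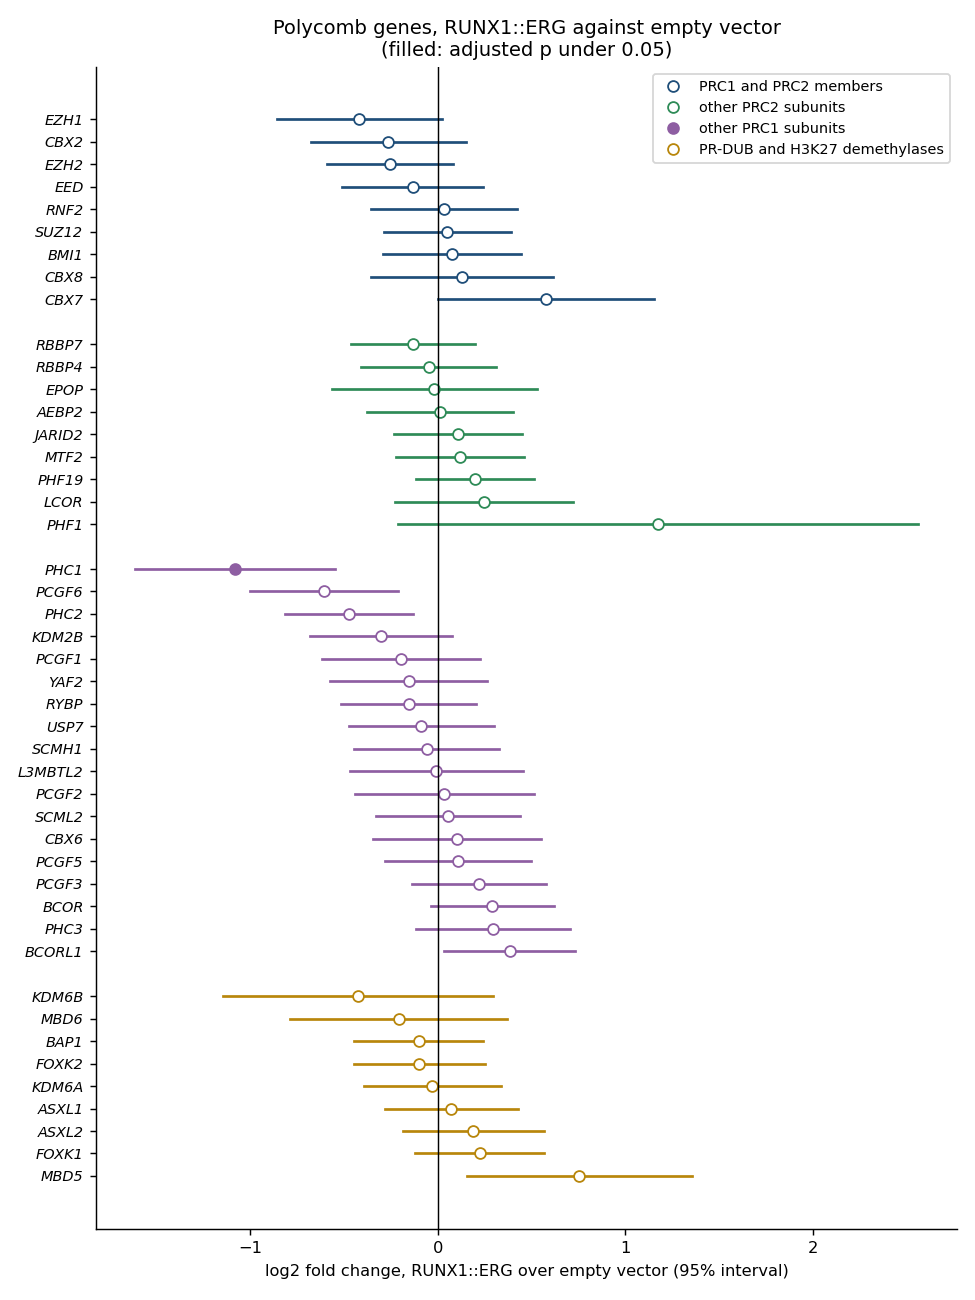
Log2 fold changes of RUNX1::ERG over empty vector, with 95% intervals, for the 9 tested members and 36 other tested genes of the Polycomb system. Points are fitted values from edgeR, colors mark the gene lists, and the single filled point, PHC1 at -1.08, is the gene with an adjusted p under 0.05.

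Enzymes that remove the Polycomb marks were examined next. Of 9 tested genes of the deubiquitinase complex PR-DUB and of the H3K27 demethylases, 0 passed in edgeR, against 4.79% of all genes tested. An unadjusted p under 0.05 by edgeR was seen in 1, against 18% of all genes tested, and the median was -0.03. MBD5, a PR-DUB subunit, had the largest fitted difference (0.76, adjusted p = 0.163 by edgeR), and FOXK2, a transcription factor that binds PR-DUB, was the highest expressed (-0.10). KDM6B, an H3K27 demethylase named after its values were seen, was at 80.3 and 34.8 normalized CPM with empty vector and at 50.7 and 34.9 with RUNX1::ERG, so the control replicates differed by more than the groups.

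Genes known as Polycomb targets in stem cells were mostly at or near 0 in both groups. Of 16, only 4 passed the filter, 8 were at 0 in every library, CDKN2A, CDKN2B and HOXA9 among them, and the highest count of any gene under the filter was 13. K562 is known to lack the CDKN2A and CDKN2B genes, so a count of 0 is not evidence of Polycomb silencing. All 4 tested genes had a fitted difference below 0 (median -0.70). The groups of 2 of them did not overlap, as on the lower side for 22.1% of all genes tested. Only CCND2 passed, which is 25% of those tested, where 1.15% of all genes tested were called lower. CCND2, which encodes cyclin D2, fell from 48.3 and 36.8 to 25.4 and 23.3 normalized CPM, with no overlap. Its fitted log2 difference was -0.80 with a standard error of 0.19 (adjusted p = 0.0408 by edgeR). Without empty vector replicate 1, RUNX1::ERG replicate 1 or RUNX1::ERG replicate 2 the call was lost (adjusted p = 0.108, 0.101 and 0.114 by edgeR), as it was with library totals alone (0.0667) or upper quartile scaling (0.0528). MYT1, a neural transcription factor gene, had the largest fitted difference, -1.34, at under 1 CPM in every library (adjusted p = 0.261 by edgeR).

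Because EZH2 levels are known to follow cell division, 10 proliferation genes were set beside it. Of these, 0 passed in edgeR, against 4.79% of all genes tested, and 2 had an unadjusted p under 0.05, against 18%. The fitted difference was above 0 in 4 and below 0 in 6, with a median of -0.02. MKI67, a marker of cycling cells, had the largest fitted difference, 0.46 (adjusted p = 0.178 by edgeR), and MCM2, a DNA replication licensing gene chosen after its values were seen, had -0.34 (adjusted p = 0.239 by edgeR). TOP2A, the highest expressed of the list, had 0.05. By flow cytometry, the paper reports that RUNX1::ERG lowered both proliferation and cell cycle progression in transfected K562 cells. The RNA levels given here do not measure cell division, and whether it has a part in the EZH2 values was not tested.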

How the data were processed

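Poly(A)-enriched RNA of transfected K562 cells was sequenced, and the authors deposited 1 table of unnormalized read counts for each library, keyed by NCBI gene number. The submitters' processing notes list HISAT2 2.2.1, featureCounts 2.0.1 and hg19. The annotation, strand setting and treatment of read pairs are not given in the sources used here. Between 66.7% and 68.9% of counts from 1 to 10 were even, as when both mates of a pair are counted. Symbols came from NCBI and RefSeq tables (92.2% of 25702 genes matched), positions and lengths from GENCODE v44 on GRCh37.

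Counts were scaled by TMM, filtered with filterByExpr and compared by the quasi-likelihood test of edgeR 4.0.16 (R 4.3.3) over all 15394 genes kept, with Benjamini-Hochberg adjustment and a threshold of 0.05. Normalized CPM are edgeR's counts relative to the TMM-scaled library size. Standard errors were derived from each log2 fold change and its F statistic. Ratios within a library were compared by exact permutation. With 2 replicates per group, biological and technical spread cannot be told apart. The procedure was run on simulated data, with changes larger than the fitted differences of the members. That run cannot show whether differences of their size would be called. Alternatives were other scalings and filters, DESeq2 1.42.0, limma 3.58.1 voom, halved counts, a replicate block and leaving out each library.

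The named genes were all members and, from each other list, the genes called (at most 5), the largest fitted difference and the highest expressed gene, plus PCGF2, RUNX1, ERG and MYC. Exceptions are stated where they occur. An item of the lists is not reported here and does not enter their counts. The members and lists were chosen with earlier results of these data known.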

Additional observations from a re-analysis of the deposited data

How the results depend on the processing

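The count of members called was 0 under every alternative run, including DESeq2, limma voom, other scalings and filters, the replicate block and each left-out library. Over the alternatives the adjusted p ranged from 0.0527 to 0.755 for CBX7, from 0.0866 to 0.766 for EZH1 and from 0.213 to 0.836 for EZH2, and these 3 kept their direction throughout. Leaving out 1 library at a time gave log2 fold changes of -0.60 to -0.23 for EZH1, -0.33 to -0.18 for EZH2, 0.33 to 0.88 for CBX7 and -0.48 to -0.01 for CBX2. The sign was not stable for SUZ12 (-0.035 to 0.12), EED (-0.26 to 0.0035), BMI1 (-0.061 to 0.22), RNF2 (-0.094 to 0.14) and CBX8 (-0.023 to 0.26). The log2 ratios ran from -0.08 to 0.40 for EZH2 to EZH1, from -0.29 to 0.40 for BMI1 to PCGF2 and from 0.18 to 0.56 for CBX8 to CBX2. Among other named genes the sign changed for PHF1 (-0.54 to 1.92), USP7 (-0.27 to 0.12), PCGF2 (-0.21 to 0.23), FOXK2 (-0.21 to 0.027) and TOP2A (-0.11 to 0.18). A fit without 1 library assumes that the lone library of its group varies like the other group. Levels per kb depend on the transcript length chosen, as given above.

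The count over all genes was 737 (76.0% higher), 1500 without a filter (64.1% higher), 1204 by DESeq2 (66.5%), 618 with library totals alone (83.3%), and 354 to 1355 with 1 library left out, lowest without RUNX1::ERG replicate 1. Without a filter the other PRC2 genes had 1 call (PHF1, in the low interval around RING1) and the erythroid markers 4. Library totals alone gave 0 calls for the other PRC1 genes and 0 for the target genes, where PHC1 was at -1.04 (adjusted p = 0.0533 by edgeR) and CCND2 at -0.77 (adjusted p = 0.0667 by edgeR). Upper quartile scaling gave 0 for the target genes. DESeq2 gave 2 for the other PRC1 genes, PCGF6 being added. With 1 library left out the counts were 0 to 1 for other PRC2, other PRC1 and PR-DUB with demethylase genes, 0 to 2 for the target genes and 0 to 4 for the erythroid markers. The cause was not tested.

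For the replicate block, the labels give shared numbers but no shared batch, and same-numbered libraries deviated together with r = 0.271 over 15394 genes, a hint from the data and not from the design. The block fit called 1733 genes (62.4% higher), 0 of the members, 3 other PRC1 genes (PHC1, PHC2 and PCGF6), 1 proliferation gene (MKI67) and 6 erythroid markers, with adjusted p = 0.0866 for EZH1 and 0.0735 for CBX7 by edgeR.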

Other observations

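The order of replicates 1 and 2 was compared between the groups for the members alone, so no share over all genes stands beside it. Of the 9 tested members, EED, BMI1, RNF2 and CBX2 were higher in replicate 2 in both groups, EZH1 and CBX7 were higher in replicate 1 in both groups, and 3 members differed between the groups in this order. MBD6, a PR-DUB subunit chosen after its values were seen, was at 86.5 and 47.6 normalized CPM with empty vector and at 67.2 and 48.8 with RUNX1::ERG, higher in replicate 1 in both groups.

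COMMD3 is the gene just before BMI1 on the same strand, and an annotated read-through transcript, COMMD3-BMI1, joins them and was not a separate gene in the count tables. COMMD3, chosen after its values were seen, was at 64.9 and 63.3 normalized CPM with empty vector and at 83.8 and 92.5 with RUNX1::ERG (log2 fold change 0.46, standard error 0.16, adjusted p = 0.136 by edgeR). Its groups did not overlap, while those of BMI1 did. How reads of the read-through transcript were counted is not given in the sources used here.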
